A study of Rattus norvegicus with 2 samples.

Results

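The genes described here are the ligands and receptors of axon guidance, 72 of the 21224 rows of a table of messenger RNA levels in cortical neurons from E18 rat embryos. They were taken by symbol: semaphorins of classes 3 to 7, plexins, neuropilins, ephrins, Eph receptors, slits, Robo receptors, netrins, netrin-G proteins, Dcc and the Unc5 receptors. Of these, 37 encode ligands and 34 receptors. The symbol rule also took Unc5cl, which is not a guidance receptor and is only accounted for. One library came from cells given a small interfering RNA against Ythdf3 (siYthdf3) and one from cells given a negative control small interfering RNA (siNC). The labels name no sex, dose, time after transfection or number of embryos, and neither library is labelled as hypoxic. With 1 library per group there is no replicate check, no test between conditions and no p-value. A level is given in FPKM, the reads of a gene scaled by its length and by the library's total. Gene length here means the deposited length used for that scaling, not the span of the gene in the genome. The FPKM values step in whole reads, which gives 22586543 assigned reads in siYthdf3 and 15392218 in siNC. Ratios are siYthdf3 over siNC, and the interval after a ratio is an exact 95% interval that covers counting error only.

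Growing axons find their way by reading attractive and repulsive cues. Secreted class 3 semaphorins bind neuropilins, which signal through plexins, and most membrane semaphorins bind plexins directly. Ephrins are cell-bound ligands of the Eph receptor tyrosine kinases, slits repel axons that carry Robo receptors, and netrins attract through DCC and repel through UNC5 proteins. The protein made from Ythdf3 binds transcripts that carry the methyl mark m6A.

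Both libraries carried the RNA of neurons, with Gap43 at 887 FPKM in siYthdf3 against 749 FPKM in siNC. Both also held RNA of other cells, with the radial glia gene Fabp7 at 862 FPKM in siYthdf3 against 1105 FPKM in siNC, and the astrocyte gene Gfap at 141 FPKM in siYthdf3 against 68.2 FPKM in siNC. Of the 9 measured astrocyte markers, 5 were lower in siYthdf3, unlike Gfap. Of the 12 pan-neuronal markers, 2 were lower, unlike Gap43, among them Tubb3 at 251 FPKM in siYthdf3 against 260 FPKM in siNC. The targeted gene, Ythdf3, was at 6.93 FPKM in siYthdf3 against 9.38 FPKM in siNC (ratio 0.739, interval 0.675 to 0.809). In such bulk RNA, fewer cells of a type and less RNA per cell cannot be told apart.

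Differences of the guidance genes between the libraries were small. They were measured as log2 ratios after adding 0.5 FPKM to each value, which understates those of low genes, and 59 of the 72 members averaged the required 1 FPKM or more over both libraries. None of the 59 was 1.5-fold higher and none 1.5-fold lower in siYthdf3. Across all 13172 genes at that level, 2.41% were at least 1.5-fold higher and 3.95% at least 1.5-fold lower, so that counts of 0 among 59 are near the shares over all genes. The members' differences lay more often on the higher side, with 40 of 59 above 0, where the share over all genes was 48.1%. The median log2 ratio of the 59 members was 0.11, and that of all genes was -0.01. The summed level of the 72 members was 876 FPKM in siYthdf3 against 807 FPKM in siNC (ratio 1.09, interval 1.07 to 1.10 by a normal approximation to the counting error).

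**Figure D1:**
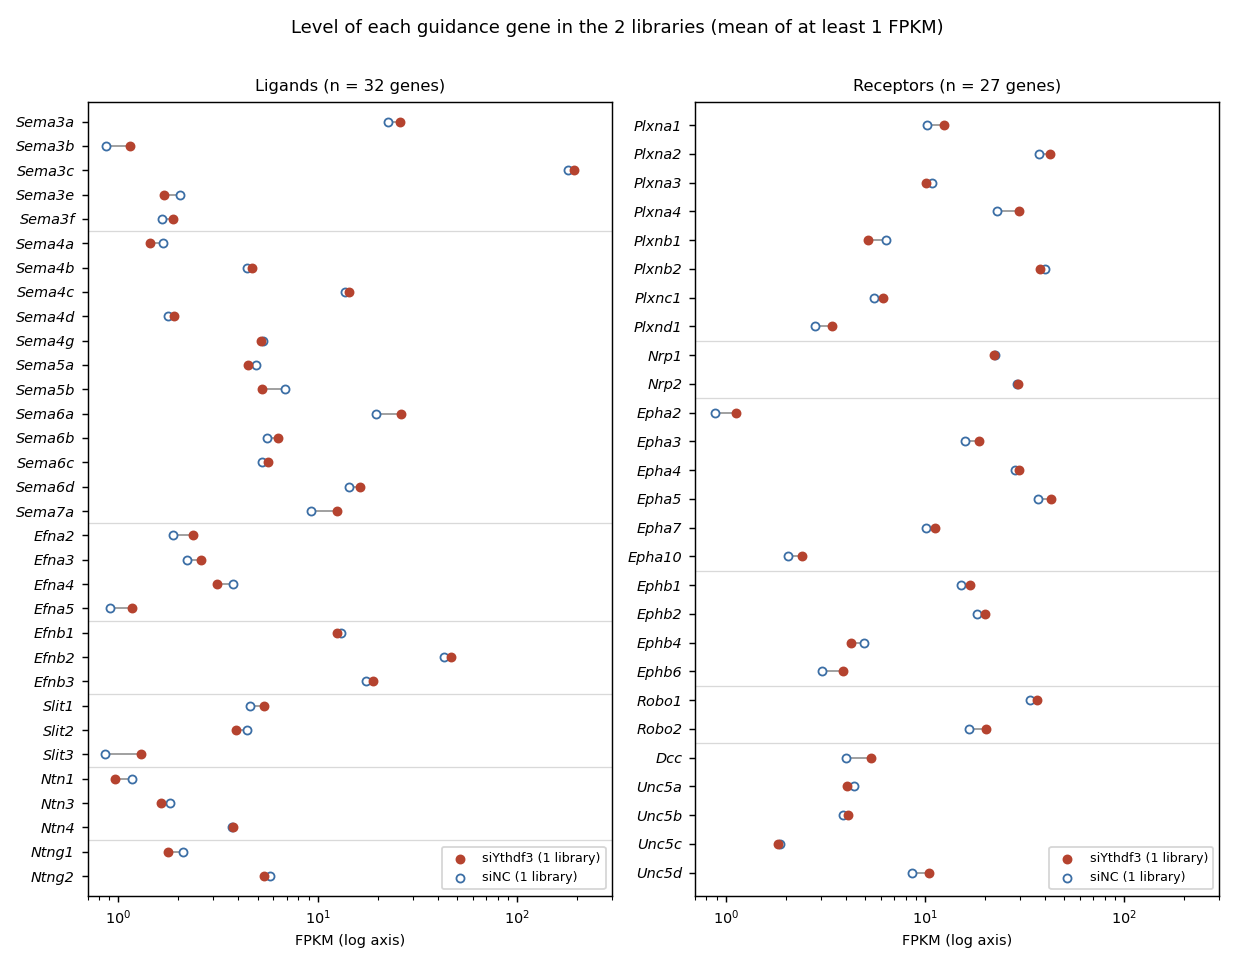
Level in FPKM (log axis) of the 32 ligand genes (left) and 27 receptor genes (right) that average at least 1 FPKM, in siYthdf3 (filled red) and siNC (open blue), 1 library each. Grey lines part the families. Sema3c stands alone near 190 FPKM, and for most genes the 2 points nearly coincide.

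Among the ligands, the class 3 semaphorin Sema3c (ENSRNOG00000006526) had by far the highest level. It was at 192 FPKM in siYthdf3 against 181 FPKM in siNC, from 21737 and 13925 reads, with a ratio of 1.06 (interval 1.04 to 1.09). Sema3c alone made up 43.6% of the summed ligand level in siYthdf3 and 44.2% in siNC. Sema3a, the archetypal repellent of cortical axons that acts through neuropilin-1, was at 25.8 FPKM in siYthdf3 against 22.4 FPKM in siNC (ratio 1.15, interval 1.09 to 1.22). Each other class 3 gene stayed below 2.1 FPKM in both libraries. Sema3e, a ligand of plexin D1, was at 1.69 FPKM in siYthdf3 against 2.03 FPKM in siNC. Sema3f, a ligand of neuropilin-2, was at 1.88 FPKM in siYthdf3 against 1.66 FPKM in siNC. Their intervals, and that of Sema3b, include 1.

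Sema3d (ENSRNOG00000007202), another secreted semaphorin, had the highest ratio of the 72 genes. It was at 1.30 FPKM in siYthdf3 against 0.491 FPKM in siNC, from 151 and 39 reads, a ratio of 2.64 (interval 1.84 to 3.86). Its log2 ratio was 0.86 with the added 0.5 FPKM, and it was the only member of the 72 past 1.5-fold on that scale. At a mean of 0.893 FPKM it was below the filter, in a range where calls are more frequent. Of the 1478 genes that average 0.5 to 1 FPKM, 8.8% were at least 1.5-fold higher. The Eph receptor gene Epha6 followed at the same mean, with 1.16 FPKM in siYthdf3 against 0.629 FPKM in siNC (ratio 1.84, interval 1.33 to 2.57). Its log2 ratio of 0.55 did not reach the 0.58 that marks 1.5-fold.

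The membrane semaphorins went both ways by class. All 4 class 6 genes were above 0, led by Sema6a, a ligand of plexins A2 and A4 and the most abundant membrane semaphorin. It was at 26.2 FPKM in siYthdf3 against 19.7 FPKM in siNC, from 4232 and 2170 reads, a ratio of 1.33 (interval 1.26 to 1.40). Sema6d was at 16.2 FPKM in siYthdf3 against 14.3 FPKM in siNC (ratio 1.14, interval 1.06 to 1.21). The intervals of Sema6b and Sema6c include 1. The summed level of the 4 genes was 54.4 FPKM in siYthdf3 against 44.9 FPKM in siNC (ratio 1.21, interval 1.17 to 1.26). Sema7a, the GPI-anchored semaphorin, was at 12.5 FPKM in siYthdf3 against 9.29 FPKM in siNC (ratio 1.35, interval 1.19 to 1.53).

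Both class 5 semaphorins, which carry thrombospondin repeats, were lower in siYthdf3. Sema5b was at 5.27 FPKM in siYthdf3 against 6.84 FPKM in siNC (ratio 0.771, interval 0.684 to 0.869) and the lowest log2 ratio of the 59 genes, -0.35. Sema5a was at 4.45 FPKM in siYthdf3 against 4.90 FPKM in siNC (ratio 0.909, interval 0.828 to 0.998). The 5 class 4 genes that average at least 1 FPKM all had intervals that include 1. So did 7623 of the 13172 genes at that level. The log2 ratios of the 5 class 4 genes ran from -0.16 for Sema4a to 0.07 for Sema4d, the ligand of plexin B1. The most abundant of them, Sema4c, was at 14.4 FPKM in siYthdf3 against 13.7 FPKM in siNC.

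No ephrin had an interval that excludes 1. Intervals that include 1 were found for 7623 of the 13172 genes at a mean of at least 1 FPKM. Efnb2, a ligand of the EphB receptors and of EphA4, was the most abundant ephrin, at 46.5 FPKM in siYthdf3 against 43.0 FPKM in siNC, from 1215 and 766 reads, a ratio of 1.08 (interval 0.987 to 1.18). Efnb3 was at 18.9 FPKM in siYthdf3 against 17.5 FPKM in siNC, and Efnb1 went the other way at 12.5 FPKM in siYthdf3 against 13.2 FPKM in siNC. The A ephrins, anchored by GPI, were low, with a summed level of 9.56 FPKM in siYthdf3 against 9.22 FPKM in siNC over 5 genes. Efna4, the most abundant of them, was at 3.11 FPKM in siYthdf3 against 3.78 FPKM in siNC, from 110 and 91 reads, a ratio of 0.824 (interval 0.618 to 1.10). Efna2 and Efna3 lay above 0, at log2 ratios of 0.27 and 0.20, on 63 and 142 reads in siYthdf3.

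The 3 slits split in direction. Slit1, the most abundant of them, was at 5.36 FPKM in siYthdf3 against 4.59 FPKM in siNC, from 712 and 416 reads, a ratio of 1.17 (interval 1.03 to 1.32). Slit3 was at 1.31 FPKM in siYthdf3 against 0.854 FPKM in siNC (ratio 1.53, interval 1.15 to 2.06), which on the log2 scale with the added 0.5 FPKM was 0.42, the highest of the 59. Slit2 was lower, at 3.90 FPKM in siYthdf3 against 4.40 FPKM in siNC (ratio 0.888, interval 0.796 to 0.992). The netrins and netrin-G proteins all had intervals that include 1. So did 7623 of the 13172 genes at a mean of at least 1 FPKM. Ntn4, the most abundant netrin, was at 3.75 FPKM in siYthdf3 against 3.70 FPKM in siNC, from 177 and 119 reads, a ratio of 1.01 (interval 0.799 to 1.29). Ntn1, the classical attractant, was at 0.958 FPKM in siYthdf3 against 1.17 FPKM in siNC (ratio 0.822, interval 0.631 to 1.07). Ntng2, a GPI-anchored relative that does not bind DCC, was at 5.40 FPKM in siYthdf3 against 5.77 FPKM in siNC, from 291 and 212 reads, a ratio of 0.935 (interval 0.781 to 1.12).

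Among the receptors, the A and B plexins went opposite ways in summed level, though single genes overlapped. The log2 ratio of Plxna3 was -0.09 and that of Plxnb2 -0.08. Of the A plexins, the partners of neuropilins, Plxna4 was at 29.7 FPKM in siYthdf3 against 23.1 FPKM in siNC, from 8713 and 4606 reads, a ratio of 1.29 (interval 1.24 to 1.34). Plxna1 was at 12.5 FPKM in siYthdf3 against 10.2 FPKM in siNC (ratio 1.22, interval 1.15 to 1.29). Plxna2 (ENSRNOG00000007324), the most abundant plexin, was at 42.5 FPKM in siYthdf3 against 37.1 FPKM in siNC, from 9781 and 5827 reads, a ratio of 1.14 (interval 1.11 to 1.18). These 3 stood apart from Plxna3, at 10.2 FPKM in siYthdf3 against 10.9 FPKM in siNC (ratio 0.936, interval 0.870 to 1.01). Gene length moved with these values. With the trend over length removed, the log2 ratio was 0.21 for Plxna4, where it was 0.36 before, 0.12 for Plxna1, where it was 0.28 before, and 0.06 for Plxna2, where it was 0.19 before. That of Plxna3 was -0.16, where it was -0.09 before, and that of Plxnb2 was -0.13, where it was -0.08 before. Plxna4 was at 2.92 times the level of Plxna3 in siYthdf3 and at 2.12 times in siNC.

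The B plexins, whose ligands include class 4 semaphorins, were all lower in siYthdf3. Plxnb1 was at 5.17 FPKM in siYthdf3 against 6.38 FPKM in siNC (ratio 0.810, interval 0.738 to 0.890). Plxnb2 was at 37.7 FPKM in siYthdf3 against 39.9 FPKM in siNC (ratio 0.945, interval 0.907 to 0.985). Plxnb3, below the filter, was at 0.281 FPKM in siYthdf3 against 0.497 FPKM in siNC, from 39 and 47 reads, a ratio of 0.565 (interval 0.360 to 0.883). The summed level of the 3 genes was 43.1 FPKM in siYthdf3 against 46.8 FPKM in siNC (ratio 0.923, interval 0.889 to 0.958), while that of the 4 A plexins was 94.8 FPKM in siYthdf3 against 81.3 FPKM in siNC (ratio 1.17, interval 1.14 to 1.19). These sums keep the length trend. The A plexins had a median length of 11134 bases, and the B plexins above the filter one of 7426 bases. Of the remaining plexins, Plxnd1, the receptor of Sema3e, had a ratio of 1.22 (interval 1.06 to 1.41) and Plxnc1, the receptor of Sema7a, of 1.11 (interval 1.00 to 1.22, its lower end just above 1).

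The promoter windows of the 3 B plexins are printed because these genes lay on the same side of 1, with that of Sema3d as the gene with the highest ratio. They are 300 bases each from RefSeq on GRCr8, from 250 bases before to 50 after the annotated start, 5′ to 3′ on the gene's strand, with CG dinucleotides in capitals.
Plxnb1, chr8:118622911-118623210, plus strand: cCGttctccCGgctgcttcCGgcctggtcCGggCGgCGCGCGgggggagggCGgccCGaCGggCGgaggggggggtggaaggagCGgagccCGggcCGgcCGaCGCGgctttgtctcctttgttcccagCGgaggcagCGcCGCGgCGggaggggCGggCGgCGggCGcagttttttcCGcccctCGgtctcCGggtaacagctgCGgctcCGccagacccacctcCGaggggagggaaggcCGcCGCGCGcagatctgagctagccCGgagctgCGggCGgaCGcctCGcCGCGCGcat
Plxnb2, chr7:122137899-122138198, minus strand: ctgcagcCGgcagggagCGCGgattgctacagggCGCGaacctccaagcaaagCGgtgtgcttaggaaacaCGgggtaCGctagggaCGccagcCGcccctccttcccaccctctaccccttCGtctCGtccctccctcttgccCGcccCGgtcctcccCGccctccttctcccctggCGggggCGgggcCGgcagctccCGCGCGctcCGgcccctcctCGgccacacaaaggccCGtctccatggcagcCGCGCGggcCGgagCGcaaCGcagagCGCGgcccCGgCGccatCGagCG
Plxnb3, chrX:156646624-156646923, plus strand: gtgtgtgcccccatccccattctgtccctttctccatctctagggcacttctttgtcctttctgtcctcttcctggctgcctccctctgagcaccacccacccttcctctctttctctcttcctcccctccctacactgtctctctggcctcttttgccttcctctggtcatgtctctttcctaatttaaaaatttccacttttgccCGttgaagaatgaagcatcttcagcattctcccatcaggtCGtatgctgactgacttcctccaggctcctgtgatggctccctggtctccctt
Sema3d, chr4:23460922-23461221, minus strand: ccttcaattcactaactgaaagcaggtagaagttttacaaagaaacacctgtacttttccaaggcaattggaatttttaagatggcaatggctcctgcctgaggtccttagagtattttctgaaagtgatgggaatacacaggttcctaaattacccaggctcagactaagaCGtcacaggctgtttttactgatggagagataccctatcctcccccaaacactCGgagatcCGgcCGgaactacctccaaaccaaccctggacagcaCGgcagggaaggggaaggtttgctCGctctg
The B plexins did not share the CG content of this window. It held 45 CG dinucleotides in Plxnb1, 36 in Plxnb2 and 2 in Plxnb3, and 6 in Sema3d. A window was found for 57 of the 72 members, 1 of them with a second start, and these had a median of 17.5 CG dinucleotides, against 7 in all 33469 windows. Because Wwtr1, named in the study's title, encodes a partner of TEAD factors, the TEAD core letters GGAATG were searched on both strands, as GGAATG or CATTCC. They occurred in the windows of 6 members, Ntn3, Ntn5, Sema4f, Epha1, Epha2 and Epha10, of which Ntn5, Sema4f and Epha1 were below the filter. That was 10.3% of the 58 member windows, where the share of all windows was 14.2%. None of the 4 windows printed holds these letters.

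**Figure D2:**
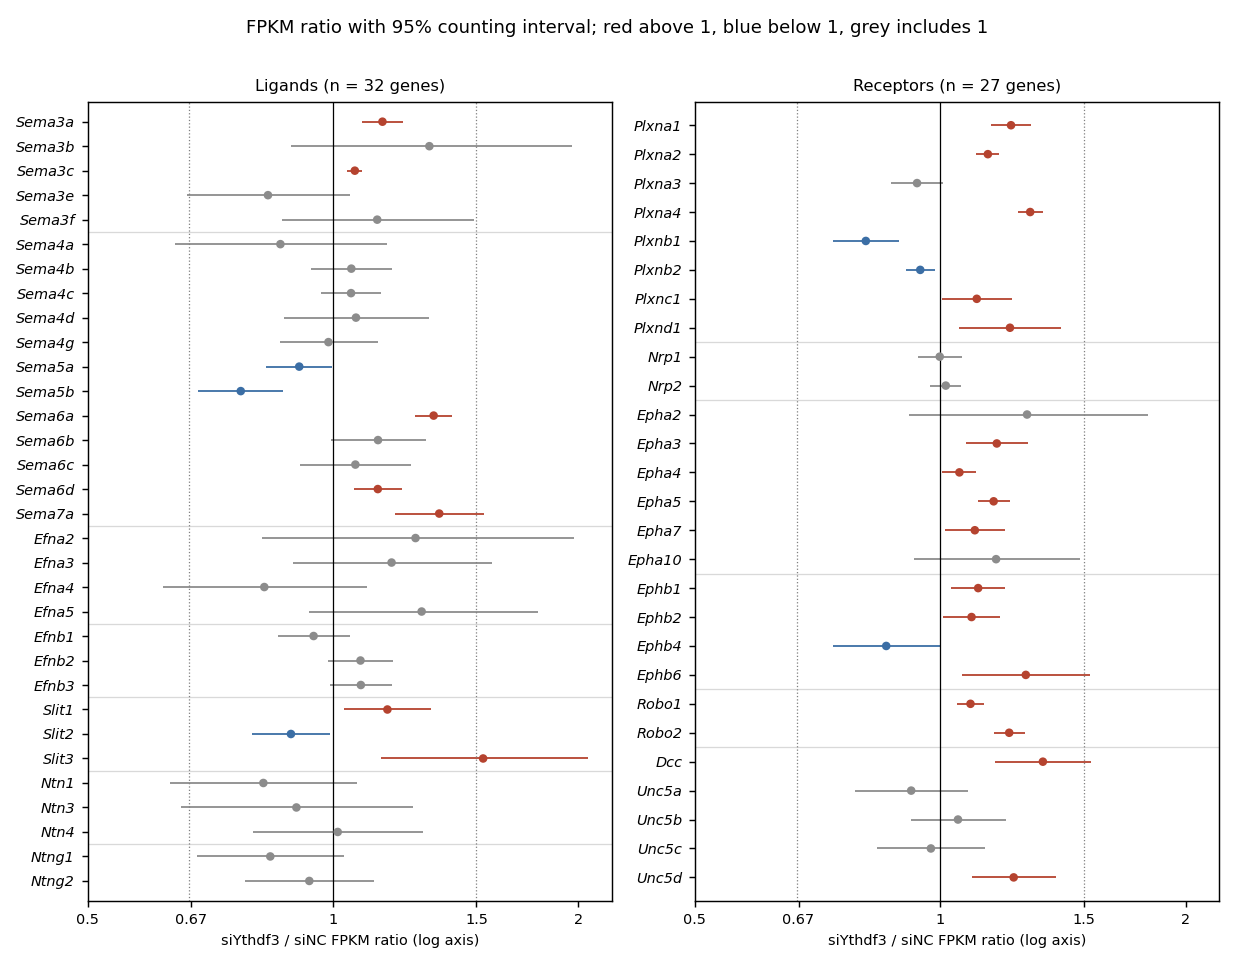
FPKM ratio of siYthdf3 over siNC (log axis) with its exact 95% counting interval for the 32 ligand and 27 receptor genes that average at least 1 FPKM. Solid lines mark 1 and dotted lines 1.5-fold. Red intervals lie above 1 (7 ligands, 16 receptors), blue ones below 1 (3 and 3) and grey ones include 1.

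The neuropilins, which hold class 3 semaphorins for the plexins, had nearly the same level in both libraries. Nrp2 was at 29.3 FPKM in siYthdf3 against 28.8 FPKM in siNC, from 5045 and 3385 reads, a ratio of 1.02 (interval 0.972 to 1.06). Nrp1 was at 22.3 FPKM in both libraries, a ratio of 0.998 (interval 0.938 to 1.06). These intervals leave room for counting error of a few percent, and the spread between samples was not measured.

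All 6 EphA receptor genes that average at least 1 FPKM were above 0, with log2 ratios from 0.08 to 0.24. Epha5, a repulsive receptor in topographic mapping, was the most abundant, at 42.7 FPKM in siYthdf3 against 36.7 FPKM in siNC, from 5156 and 3022 reads, a ratio of 1.16 (interval 1.11 to 1.22). Epha3 was at 18.7 FPKM in siYthdf3 against 15.9 FPKM in siNC (ratio 1.17, interval 1.07 to 1.28). Epha4, which also binds B ephrins, was at 29.7 FPKM in siYthdf3 against 28.2 FPKM in siNC (ratio 1.06, interval 1.01 to 1.11). With Epha7 at a ratio of 1.10 (interval 1.01 to 1.20), 4 of the 6 had intervals above 1, where the share over all genes was 20% at a mean of at least 1 FPKM, 21.5% from 5 to 20 FPKM and 28% from 20 FPKM. With the length trend removed, the log2 ratio of Epha4 was 0.02, where it was 0.08 before, and that of Epha7 was 0.06, where it was 0.13 before.

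The EphB receptors were less uniform. Ephb2, the most abundant, was at 19.9 FPKM in siYthdf3 against 18.2 FPKM in siNC, from 1542 and 962 reads, a ratio of 1.09 (interval 1.01 to 1.19). Ephb1 was close to it at a ratio of 1.11 (interval 1.03 to 1.20). Ephb6, whose kinase domain is inactive, was at 3.87 FPKM in siYthdf3 against 3.04 FPKM in siNC (ratio 1.27, interval 1.06 to 1.53). Ephb4, best known from blood vessels, was lower at 4.24 FPKM in siYthdf3 against 4.94 FPKM in siNC (ratio 0.858, interval 0.738 to 0.999). Ephb3 was below the filter, with an interval that includes 1.

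Both Robo receptors of the cortex were slightly higher. Robo1 was at 36.5 FPKM in siYthdf3 against 33.5 FPKM in siNC, from 7000 and 4380 reads, a ratio of 1.09 (interval 1.05 to 1.13). Robo2 was at 20.3 FPKM in siYthdf3 against 16.7 FPKM in siNC (ratio 1.21, interval 1.16 to 1.27). After the trend of all genes with gene length was removed, their log2 ratios were 0.02 for Robo1, where it was 0.12 before, and 0.12 for Robo2, where it was 0.27 before. Robo3, the commissural receptor, was near the limit of detection with 3 reads in siYthdf3 and 2 in siNC. Robo4, the endothelial member, had 1 read in siYthdf3 and 0 in siNC, where 0 reads allow up to 0.0503 FPKM at 3 reads.

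Of the netrin receptors, Dcc had the largest difference. It was at 5.34 FPKM in siYthdf3 against 3.99 FPKM in siNC, from 649 and 331 reads, a ratio of 1.34 (interval 1.17 to 1.53), the highest log2 ratio of the 27 receptors, 0.38. Unc5d, a marker of migrating upper-layer neurons in mouse cortex, was the most abundant, at 10.5 FPKM in siYthdf3 against 8.55 FPKM in siNC, from 789 and 437 reads, a ratio of 1.23 (interval 1.09 to 1.39). Unc5a, Unc5b and Unc5c had levels of 1.83 to 4.42 FPKM and intervals that include 1. Unc5cl, taken by its symbol only, had 0 reads in siYthdf3 and 1 in siNC.

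The other members at 1 FPKM or more were low or close to equal in the libraries. Their levels in siYthdf3 ran from 1.12 FPKM for Epha2 to 6.32 FPKM for Sema6b, with Sema3b, Sema4b, Sema4g, Sema6c, Efna5, Ntn3, Ntng1 and Epha10 between, and each interval includes 1. The 13 members below the filter were 5 ligands, 7 receptors and Unc5cl. Apart from Sema3d, Epha6 and Plxnb3, described above, their intervals include 1 or, for Robo4, have no upper limit. Sema4f had 71 reads in siYthdf3 against 38 in siNC and Ephb3 81 against 71, whereas Sema3g, Efna1, Ntn5, Epha1 and Epha8 had at most 18 reads in either library.

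The order of the ligand and receptor medians changed when the trend over gene length was removed. As deposited, the median log2 ratio was 0.08 over 32 ligands and 0.14 over 27 receptors, a difference of -0.06 for ligands minus receptors, and -0.01 over all genes. With the trend over gene length removed, that difference turned to 0.01. Above 0 were 20 of 32 ligands (62.5%) and 20 of 27 receptors (74.1%) as deposited. Without the trend the shares were 59.4% of ligands (19 of 32) and 66.7% of receptors (18 of 27). These shares rest on few genes, and their order was not that of the medians. Counting intervals lay above 1 for 7 ligands and 16 receptors and below 1 for 3 ligands and 3 receptors, where 20% of all genes lay above and 22.2% below. Interval counts depend on the number of reads behind a gene, and receptors had more, 71517 in siYthdf3 and 44003 in siNC over 34 genes, than ligands, 44953 in siYthdf3 and 28318 in siNC over 37. The summed ligand level was 441 FPKM in siYthdf3 against 409 FPKM in siNC (ratio 1.08, interval 1.06 to 1.10), and the summed receptor level was 435 FPKM in siYthdf3 against 398 FPKM in siNC (ratio 1.09, interval 1.08 to 1.11).

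In each of 4 ranges of level, more members had an interval above 1 than below 1. Of the 12 members with a mean of at least 20 FPKM, 8 lay above 1 and 1 below, where 28% and 37.3% of all such genes did. From 5 to 20 FPKM, 10 of 20 lay above and 2 below, where the shares of all genes were 21.5% and 21.6%. From 1 to 5 FPKM, 5 of 27 lay above and 3 below, where the shares were 12.9% and 12.5%. Below 1 FPKM, 2 of 13 lay above and 1 below, where the shares were 3.37% and 2.51%.

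**Figure D3:**
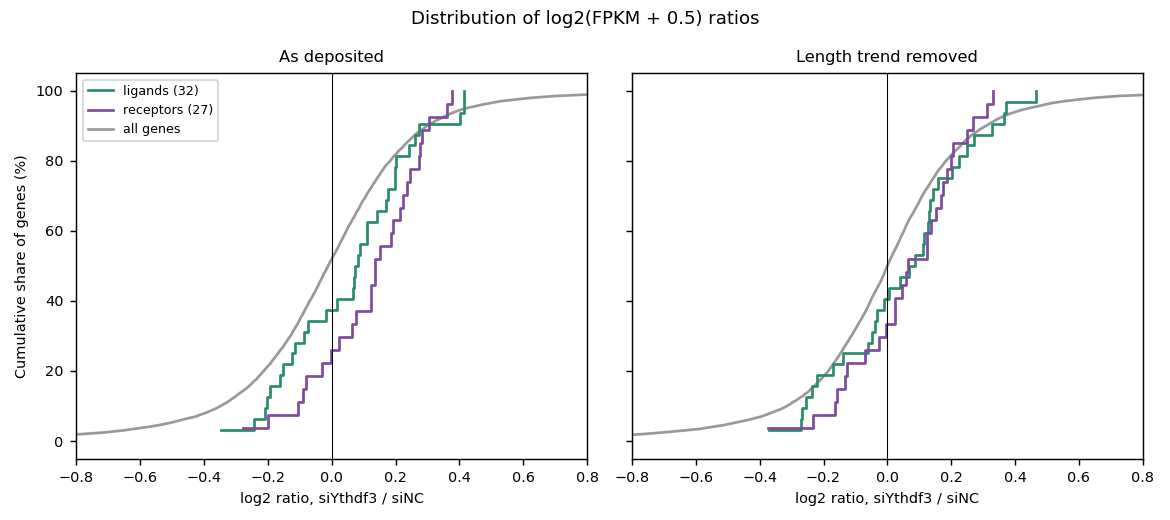
Cumulative share of genes (%) against the log2 ratio of siYthdf3 over siNC, for 32 ligands (green), 27 receptors (purple) and all 13172 genes (grey), as deposited (left) and after the trend with gene length was removed (right). On the left the receptors lie to the right of the ligands at most heights, with medians of 0.14 and 0.08, and on the right the medians are 0.06 and 0.08.

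Gene length moved with the log2 ratio. Over all genes split into 10 bins of length, the median log2 ratio was -0.08 in the bin of the shortest genes and 0.11 in that of the longest. By the deposited length the 27 receptors were long, with a median of 6059 bases. The 32 ligands had a median of 4300.5 bases, and all genes one of 2917 bases. Robo1, for one, has 8490 bases by that length, over a genomic span from 10580908 to 11620203. After the running median over length was taken off each gene, the median was 0.08 for ligands and 0.06 for receptors. Above 0 were then 19 of 32 ligands and 18 of 27 receptors, against 49.9% of all genes. Beside the plexins, Eph and Robo receptors described above, the log2 ratio of Plxnc1 was then 0.05, where it was 0.14 before, and that of Slit1 was 0.13, where it was 0.20 before. Values below 0 moved farther from 0 for Sema5a, at -0.27 after and -0.12 before, and for Slit2, at -0.25 after and -0.15 before. The log2 ratio was 0.46 for Sema7a, 0.33 for Dcc, 0.33 for Sema6a, -0.37 for Sema5b and -0.37 for Plxnb1, each within 1.5 times its value before.

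**Figure D4:**
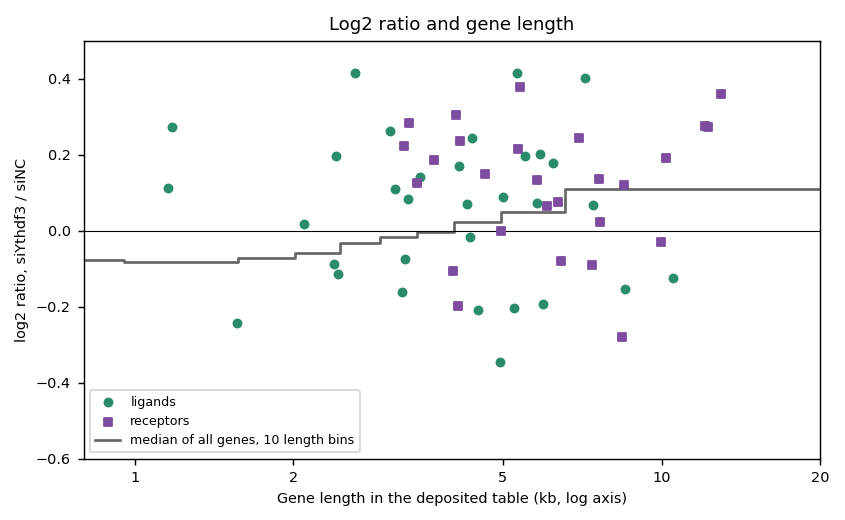
Log2 ratio of siYthdf3 over siNC against gene length in kilobases (log axis) for the ligands (green circles) and receptors (purple squares) that average at least 1 FPKM. The grey line is the median of all genes in 10 length bins, which climbs from -0.08 to 0.11, and 30 of the 59 members lie in its 2 longest bins.

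FPKM levels are per length, so those of cognate partners can be set against each other. Dcc was at 5.57 times the level of Ntn1 in siYthdf3 and at 3.43 times in siNC, with an interval above 1 for Dcc and one that includes 1 for Ntn1. For the slit pathway, Robo2 was at 5.19 times the level of Slit2 in siYthdf3 and at 3.80 times in siNC, but at 3.79 times the level of Slit1 in siYthdf3 and 3.63 times in siNC. Robo1 was at 9.35 times the level of Slit2 in siYthdf3 and at 7.63 times in siNC, but at 6.81 times the level of Slit1 in siYthdf3 and 7.30 times in siNC. Epha5 was at 36.5 times the level of Efna5 in siYthdf3 and at 40.4 times in siNC, with an interval for Efna5 that includes 1. Nrp1 was at 0.864 times the level of its ligand Sema3a in siYthdf3 and at 0.995 times in siNC. Plxna4 and its ligand Sema6a both had intervals above 1, and the ratio of their levels was 1.13 in siYthdf3 and 1.17 in siNC.

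Members that lie close together in the genome had unlike ratios in some pairs and like ratios in others. The coordinates deposited by the authors carry no build name and place Sema3c, Sema3e, Sema3a and Sema3d in this order on chromosome 4, all on the minus strand. Sema3d (22316779 to 22505930) starts 822 kb beyond the end of Sema3a (21287982 to 21494432). Their log2 ratios were 0.86 for Sema3d, which is below the filter, and 0.20 for Sema3a. Sema3e (20299718 to 20555229), on the other side of Sema3a, was at -0.21, with an interval that includes 1. On chromosome 2, Efna3 and Efna4 lie 9.99 kb apart and were at 0.20 and -0.24, with intervals that include 1. Robo1 and Robo2, 909 kb apart on chromosome 11, were both above 0, at 0.12 and 0.27. Sema3b and Sema3f, 74.7 kb apart on chromosome 8, were at 0.26 and 0.14, with intervals that include 1. Plxnb3, below the filter, and Plxna3, 607 kb apart on the X chromosome, were at -0.35 and -0.09.

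Genes of the wider guidance pathway that average at least 1 FPKM stayed under 1.5-fold on the log2 scale with the added 0.5 FPKM. Most genes of the table did too. Cntn4, a listed cue or co-receptor below the filter, was at 1.08 FPKM in siYthdf3 against 0.565 FPKM in siNC. Its ratio was 1.92 (interval 1.31 to 2.86) and its log2 ratio 0.57. Of 50 measured intracellular mediators, none was 1.5-fold higher and none 1.5-fold lower, with a median log2 ratio of 0.09 and 36 above 0. The shares over all genes were 2.41% higher, 3.95% lower and 48.1% above 0, so that counts of 0 among 50 or fewer genes are near them. The largest differences at a mean of at least 5 FPKM were those of the GTPase Rac1 at 0.52, the GTPase Rnd1 at -0.38, the slit-Robo effector Srgap3 at 0.36 and the cofilin kinase Limk1 at 0.35. Of 31 further cues and co-receptors, none passed 1.5-fold in either direction, with a median of 0.12 and 28 above 0. That median was 0.06 with the length trend removed, and that of the mediators was 0.08. At a mean of at least 5 FPKM, Cntn1 and Chl1, both adhesion molecules of axons, were at 0.34 each, the neogenin ligand Rgmb at 0.30 and Flrt3, a partner of Unc5 and Robo receptors, at 0.29. Below that level, and named after their values were seen, the hedgehog co-receptor Boc had the highest log2 ratio of the 31, 0.43, and the neogenin ligand Rgma the lowest, -0.35. Rgma had the only interval below 1 among them, with 369 reads in siYthdf3 against 333 reads in siNC (ratio of FPKM 0.755, interval 0.649 to 0.878). Intervals above 1 were found for 20 of the 31. Of the 50 mediators, 23 had intervals above 1 and 4 below 1. The share of all genes above 1 was 20% at a mean of at least 1 FPKM, 21.5% from 5 to 20 FPKM and 28% from 20 FPKM. The share below 1 was 22.2% at a mean of at least 1 FPKM.

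Markers of cell types moved with the same contrast. Of all genes at that level, 48.1% were above 0, 2.41% at least 1.5-fold higher and 3.95% at least 1.5-fold lower. Of 12 pan-neuronal markers, 10 were above 0, with a median log2 ratio of 0.23 and a summed level of 2165 FPKM in siYthdf3 against 1863 FPKM in siNC. All 12 markers of cycling cells were below 0 and 11 of them at least 1.5-fold lower, with a sum of 197.5 FPKM in siYthdf3 against 388 FPKM in siNC. Of 12 radial glia and progenitor markers, 10 were below 0 and 4 at least 1.5-fold lower, with a sum of 1428 FPKM in siYthdf3 against 2104 FPKM in siNC. Astrocyte markers went both ways, with 4 of 9 measured above 0 and a sum of 257 FPKM in siYthdf3 against 188 FPKM in siNC. Without Gfap that sum was 116 FPKM in siYthdf3 against 119.9 FPKM in siNC. Of 8 measured oligodendrocyte lineage markers 7 were below 0, with a sum over 9 genes of 62.3 FPKM in siYthdf3 against 76.2 FPKM in siNC. The largest part of that sum in both libraries was Mog, at 38.97 FPKM in siYthdf3 against 37.8 FPKM in siNC. Mog was the only gene of this list above 0, and each of the others was lower in siYthdf3. Markers of microglia were scarce, at 3.76 FPKM in siYthdf3 against 7.85 FPKM in siNC over 8 genes. Of 3 measured, 2 were below 0 and 1 above. The latter was P2ry12, at 1.24 FPKM in siYthdf3 against 0.858 FPKM in siNC, with an interval that includes 1. Cx3cr1 had 0 reads in siYthdf3 and 2 in siNC. Markers of endothelium were scarce too, at 0.927 FPKM in siYthdf3 against 1.12 FPKM in siNC over 8 genes. Of 5 measured pericyte, fibroblast and meningeal markers 4 were below 0, while their sum over 8 genes, mostly Acta2, was 153 FPKM in siYthdf3 against 131 FPKM in siNC. Without Acta2 it was 6.40 FPKM in siYthdf3 against 10.3 FPKM in siNC. The astrocyte marker Gjb6 and the meningeal marker Lum were near the limit of detection in both libraries. Gjb6 had 1 read in siYthdf3 and 0 in siNC, and Lum 6 reads in siYthdf3 and 0 in siNC. The part of cell makeup in the differences of the guidance genes was not tested.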

How the data were processed

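RNA of 1 siYthdf3 and 1 siNC sample was extracted with TRIzol and made into a messenger RNA library with 12-base molecular identifiers, sequenced as paired reads of 150 bases, per the labels' protocols. The authors deposited FPKM per gene and library. Tools listed without a role in the submitters' processing notes are STAR 2.7.6a and StringTie 2.1.4, fastp 0.23.2, edgeR 3.40.2, and featureCounts with Subread 1.5.1. Not given in the sources used here are the genome build and whether counting used strand or identifiers, so overlapping and antisense genes are uncertain, and intervals cover counting error only.

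Reads per gene came from multiplying FPKM by length, which gave whole reads within 0.05 for 100% of values. These reads entered the counting intervals, and no test between conditions was run on them. Differences were log2 ratios of FPKM + 0.5 for genes that average at least 1 FPKM, with a rule of size of 1.5-fold, and exact Clopper-Pearson 95% intervals of the read share converted to a ratio. Members, families and lists were chosen with earlier results of these data known. Of 168 list entries 163 were found, and of the rows that share a symbol, as 194 symbols do, the most abundant one was taken. Full values were planned for the most abundant member of each family and any member past 1.5-fold, and ratios of other members were chosen for print after their values were seen. The length trend was a running median over 501 genes. The calculation was tested on simulated reads. Python 3.11.15, numpy 2.4.6, pandas 2.3.3, scipy 1.17.1 and matplotlib 3.10.9 were used.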

Additional observations from a re-analysis of the deposited data

How the results depend on the processing

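No paired analysis was possible because each group has 1 library. The medians of ligands and receptors stayed above 0 under all 11 alternatives (pseudocounts of 0.1 and 1 FPKM, no filter, means of at least 0.5 or 5 FPKM, at least 100 reads, TPM, median centring, rescaling without mitochondrial and the 20 most abundant genes, removal of the length trend, thinning of siYthdf3 reads). The filters at 0.5 FPKM and 100 reads, and the marker sums without Gfap or Acta2, were added after the data were seen. The difference of ligands minus receptors, -0.06, turned to 0.012 when the length trend was removed. The count of members 1.5-fold higher was 1 (Sema3d) with no filter, at a mean of at least 0.5 FPKM and at 100 reads, and 0 under the others and with a 2-fold rule. Rescaled to TPM, which moved the median of all genes by 0.05, the summed ratio was 1.12 for ligands and 1.13 for receptors. Of the 59 members, 52 kept the sign of their log2 ratio in every alternative that gave a value. Changes of pseudocount or filter cannot turn the sign of a single gene. Only TPM, centring, rescaling, trend removal and thinning could, and none of them measures the spread between samples. Those that did not were Nrp1, Nrp2, Ntn4, Sema4b, Sema4g, Unc5b and Unc5c. Their directions are not stable, though the counts above 0 treat them by their main value. Depth limits the members with few reads, such as Robo3, Robo4, Ntn5 and Epha1, for which no difference could be seen.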
